A study of Mus musculus with 11 samples.

Results

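Described here are 10 genes that encode cardiac transcription factors and metabolic regulators of the heart: Gata4, Nkx2-5, Mef2a, Mef2c, Mef2d, Tbx5, Tbx20, Hand2, Esrra and Ppargc1a. They were taken by symbol and not by level, and all 10, of 55421 genes in the table, were detected and tested in every comparison. RNA-seq was performed on heart tissue of 11 female C57BL/6J mice aged 8 weeks. The sham group held 3 mice (S1 to S3) that underwent the operation without infarction and received the solvent DMSO, and the tissue taken was healthy. The sample labels do not give the day on which the sham hearts were taken. Both other groups were given a myocardial infarction (MI) by permanently tying off the left anterior descending artery (LAD), and infarct together with border zone was taken 3 days later. Of these, 4 mice received DMSO (A105, A127, A128, A129) and 4 received 100 mg/kg of the ADAM10 inhibitor GI254023X (A10i; A116, A117, A119, A120), in each case from an osmotic minipump. Infarction therefore goes together with the region sampled, and the 2 cannot be told apart in a comparison with sham.

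GATA4, NKX2-5, TBX5, HAND2, TBX20 and the MEF2 proteins form the core network that builds the heart in the embryo and keeps contractile genes active in the adult cardiomyocyte. PGC-1α, the product of Ppargc1a, does not bind DNA itself. It is a coactivator that is recruited by nuclear receptors, among them ERRα (Esrra), and together they drive mitochondrial and fatty acid oxidation genes, on which the heart depends for ATP. Transcription of Ppargc1a itself responds to cyclic AMP through CREB, which binds the cAMP response element (CRE).

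Levels are given as CPM, the count of a gene scaled by the TMM-adjusted size of its library. Total counts ranged from 25538009 to 29511768 in sham, from 22651265 to 29004048 in DMSO and from 21702623 to 25695213 in A10i hearts, and the lowest count of any of the 10 genes in any library was 406 (Tbx5 in A129). The mitochondrial share of counts was 21.5 to 22.2% in sham, 14.8 to 18.6% in DMSO and 15.7 to 17.9% in A10i hearts. Both infarcted groups thus lay below sham in this share, and its part in the members' differences was not tested. The tissue carried the signature of heart muscle: all 20 cardiomyocyte markers (Myh6, Tnnt2, Ttn and others) were detected. Their summed level was 106604 to 109528 CPM in sham, 54691 to 79065 CPM in DMSO and 62809 to 85406 CPM in A10i hearts, so that the infarcted groups lay below sham without overlap. Myh6 alone made up 35.4% of the mean sum in sham, 25% in DMSO and 29.2% in A10i hearts, and without it the means were 69752, 50423 and 53241 CPM. In bulk tissue, fewer cells of a type and less RNA per cell cannot be told apart.

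The promoters of the 3 genes that rose after MI in DMSO hearts (Ppargc1a, Hand2 and Tbx20) and that of Esrra, which did not rise, are shown for orientation. Each line gives the 250 bases before the RefSeq transcription start (build GRCm38.p6), 5′ to 3′ on the strand of the gene, and capitals mark the CRE half-site TGACG and the GATA factor motif AGATAA in either orientation.

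Ppargc1a, chr5:51567726-51567975, minus strand: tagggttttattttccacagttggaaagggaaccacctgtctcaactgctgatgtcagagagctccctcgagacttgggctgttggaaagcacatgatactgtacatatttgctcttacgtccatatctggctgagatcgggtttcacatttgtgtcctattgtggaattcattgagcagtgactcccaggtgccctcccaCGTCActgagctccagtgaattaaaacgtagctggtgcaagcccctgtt

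Hand2, chr8:57320733-57320982, plus strand: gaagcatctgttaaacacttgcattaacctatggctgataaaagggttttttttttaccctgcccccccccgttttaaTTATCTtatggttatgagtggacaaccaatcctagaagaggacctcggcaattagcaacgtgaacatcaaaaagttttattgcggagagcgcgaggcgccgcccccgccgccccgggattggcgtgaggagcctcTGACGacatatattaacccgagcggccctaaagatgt

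Tbx20, chr9:24774304-24774553, minus strand: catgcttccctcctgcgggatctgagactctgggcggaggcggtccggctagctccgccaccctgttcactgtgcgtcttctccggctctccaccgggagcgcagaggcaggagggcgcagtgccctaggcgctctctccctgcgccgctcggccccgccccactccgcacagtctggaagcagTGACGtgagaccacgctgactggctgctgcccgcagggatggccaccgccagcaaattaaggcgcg

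Esrra, chr19:6921809-6922058, minus strand: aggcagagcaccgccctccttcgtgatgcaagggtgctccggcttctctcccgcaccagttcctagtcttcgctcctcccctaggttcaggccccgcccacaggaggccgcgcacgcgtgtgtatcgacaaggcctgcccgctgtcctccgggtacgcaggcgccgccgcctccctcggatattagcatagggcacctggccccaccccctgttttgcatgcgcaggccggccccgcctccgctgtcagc

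RefSeq promoters were matched for 8 of the 10 genes (not for Gata4 and Tbx5), and 6 motifs were searched on both strands. These 8 genes had 10 promoter entries, as Mef2c had 3. Members are counted by gene, whereas the shares over all promoters are by promoter. The half-site TGACG was found in 4 of the 8 genes, namely Ppargc1a (first base at -49 from the start), Hand2 (-37), Tbx20 (-66) and Nkx2-5 (-42), and in 17.8% of 32851 promoters of the same length. AGATAA occurred in Hand2 alone of the 8 genes and in 9.99% of all promoters. The letters TGACGTCA (the full CRE, which contains TGACG; 1.55% of promoters) and TCAAGGTCA (an ERR element, which contains AGGTCA; 0.387%) were in none of the 8, while the nuclear receptor half-site AGGTCA (14% of promoters) and the T-box motif AGGTGT (11.8%) were in Mef2c alone. A match is a run of letters and not a measured binding site.

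In healthy sham hearts the levels of the 10 genes differed severalfold. The lengths used cover all annotated exons of a gene, from 1719 bases (Nkx2-5) to 15715 bases (Mef2c), and not only those of the transcripts made in heart. The order between genes depends on these lengths. Per kilobase of exon, Esrra stood highest with 38.5 ± 0.769 CPM (SD, n = 3), followed by Nkx2-5 (34.5 ± 1.25), Mef2d (32.0 ± 0.473), Ppargc1a (26.9 ± 0.811) and Gata4 (25.2 ± 0.797). Hand2 with 16.4 ± 1.49 CPM per kilobase and Mef2a with 15.0 ± 0.242 overlapped each other, as did Tbx20 (7.94 ± 0.135) and Tbx5 (7.06 ± 0.779), and Mef2c was lowest with 5.30 ± 0.102. All other neighbours in this order were separated in every sham mouse. After MI the order changed at the top: Ppargc1a came first in DMSO hearts (51.9 ± 8.82 CPM per kilobase, n = 4) and in A10i hearts (42.1 ± 11.7, n = 4), although from first to sixth place each gene overlapped the next in both groups. Hand2 moved up to 27.3 ± 2.75 and 24.0 ± 3.91 CPM per kilobase, above the range of Mef2a in both groups.

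**Figure D1:**
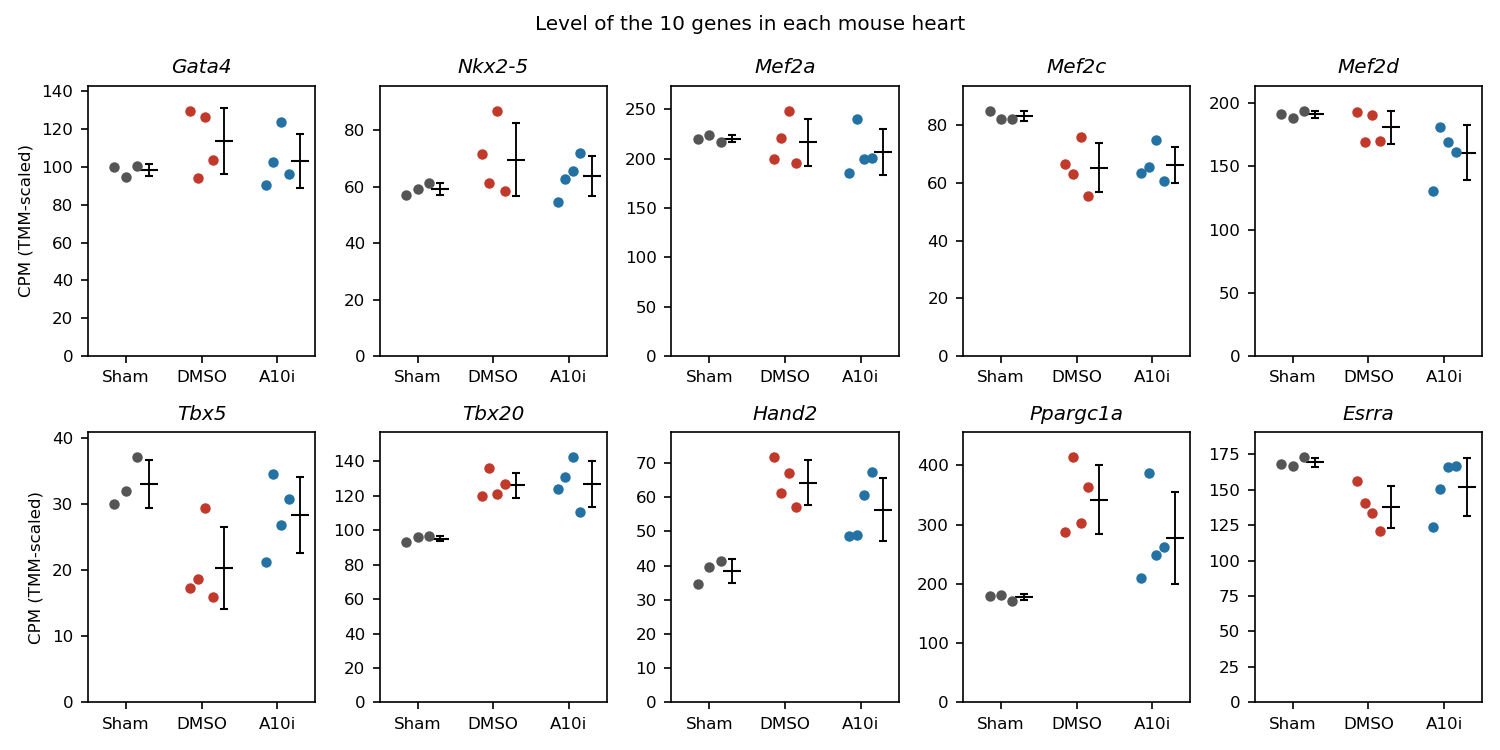
Level of each of the 10 genes in every heart, in TMM-scaled CPM on axes that start at 0. Points are single mice, and the bars beside them show mean ± SD (Sham n = 3, DMSO n = 4, A10i n = 4). Ppargc1a, Hand2 and Tbx20 lie above sham in all 8 infarcted hearts and Mef2c lies below sham in all 8.

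The first comparison, DMSO against sham, asks how infarction changes these genes. Ppargc1a, Hand2 and Tbx20 rose, and none of the 10 genes fell past the threshold (edgeR, adjusted p under 0.01 over 17117 genes). These 3 of 10 compare with 22.5% of all genes tested that passed (12.9% higher and 9.6% lower), so the share of members called is close to that of all genes. In 6 of 10 genes the DMSO and sham hearts did not overlap, against 48.7% of all genes. At an adjusted p under 0.05, which adds Mef2c, Tbx5 and Esrra as lower, 6 of 10 passed beside 39.9%. The median log2 fold change was 0.09 over the 10 genes and 0.00 over all genes.

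Ppargc1a (chr5:51454250-51567726, minus strand, mm10) showed the largest increase of the 10. Its level was 180, 181 and 171 CPM in the sham hearts and 288, 414, 303 and 363 CPM in the DMSO hearts A105, A127, A128 and A129. Every DMSO heart lay above every sham heart, by a log2 fold change of 0.94 (SE 0.13, 95% CI 0.65 to 1.24, edgeR adjusted p = 0.000752), and 89.6% of all genes had a lower value. The mean rose from 177 ± 5.35 CPM (SD, n = 3) to 342 ± 58.1 CPM (n = 4), and the call was kept whichever library was left out, with log2 fold changes of 0.84 to 1.00.

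Esrra (chr19:6910977-6921813, minus strand), which encodes the receptor partner of PGC-1α, did not follow. Sham hearts had 168, 167 and 173 CPM and DMSO hearts 156, 141, 134 and 121 CPM. All DMSO values were below sham, yet the log2 difference of -0.30 (SE 0.10, edgeR adjusted p = 0.0322) did not pass the threshold. With library size alone the difference was -0.10 (edgeR adjusted p = 0.311), where the median of all genes was 0.21. With libraries scaled to cardiomyocyte markers it was 0.40 where the median of all genes was 0.71. That is -0.31 relative to this median, a value that by construction comes close to the one by TMM. Without A105, the highest DMSO heart, the difference was -0.38 and passed (adjusted p = 0.00814). The ratio of Ppargc1a to Esrra CPM was 0.990 to 1.08 in sham hearts and 1.84 to 3.00 in DMSO hearts. On average it was 1.05 ± 0.0519 in sham and 2.51 ± 0.559 in DMSO hearts, and this ratio does not depend on how libraries are scaled. As Ppargc1a lay above and Esrra below sham in every DMSO heart, the lack of overlap in the ratio follows from these values. It is no separate support. With 3 sham mice against 4, an exact permutation test cannot give a p below 0.0571 and was not run.

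Hand2 (chr8:57320983-57324633, plus strand), which encodes a basic helix-loop-helix factor of the heart and of cardiac fibroblasts, was measured at 34.5, 39.7 and 41.2 CPM in sham and at 71.7, 61.2, 67.1 and 57.1 CPM in DMSO hearts. The groups did not overlap, with a log2 fold change of 0.74 (SE 0.10, 95% CI 0.51 to 0.96, edgeR adjusted p = 0.00064). The result was called in all 7 fits that left out 1 library. Hand2 shares 461 exonic bases with the antisense gene Hand2os1 (1278 to 2896 counts), whose own log2 fold change was 0.28 (SE 0.14, adjusted p = 0.145), and the strand setting of the counting is not given in the sources used here.

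Tbx20 (chr9:24718138-24774303, minus strand), a T-box factor needed to maintain adult cardiomyocytes, had 93.4, 95.9 and 96.4 CPM in sham and 120, 136, 121 and 126.9 CPM in DMSO hearts. The step was small but the groups were well apart (log2 fold change 0.40, SE 0.08, edgeR adjusted p = 0.00319). Leaving out any of the 3 sham libraries raised the adjusted p to between 0.0205 and 0.0248, with the log2 fold change at 0.38 to 0.41.

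Tbx5 (chr5:119832668-119885219, plus strand), the T-box factor mutated in Holt-Oram syndrome, was at 30.05, 31.9 and 37.1 CPM in sham hearts and at 17.3, 18.7, 29.4 and 15.9 CPM in DMSO hearts. A128 reached almost the lowest sham value, and the other DMSO hearts lay far below. The log2 difference of -0.70 (SE 0.20, 95% CI -1.15 to -0.25) missed the threshold in edgeR (adjusted p = 0.0213) but passed in DESeq2 (0.00273), was -0.93 without A128 (edgeR adjusted p = 0.000454), and was 0.01 per cardiomyocyte marker count, -0.70 relative to the median of all genes on that scale. The ratio of Tbx20 to Tbx5 was 2.6 to 3.11 in sham and 4.13 to 7.97 in DMSO hearts (2.90 ± 0.269 and 6.58 ± 1.69). This separation too follows from the levels of the single genes, as Tbx20 lay above and Tbx5 below sham in every DMSO heart.

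The MEF2 genes encode MADS-box factors that bind promoters of contractile genes, and none of the 3 passed. Mef2c (chr13:83504034-83667080, plus strand) had 85.1, 82.3 and 82.3 CPM in sham and 66.4, 63.2, 75.8 and 55.3 CPM in DMSO hearts. Every DMSO value was below sham, with a log2 difference of -0.36 (SE 0.10, edgeR adjusted p = 0.0197), which passed in DESeq2 (0.00963) and without A128 (-0.43, 0.00387), was -0.15 with library size alone (0.206; median of all genes 0.21) and 0.35 under cardiomyocyte marker scaling, -0.36 relative to the median of all genes there. Mef2a (chr7:67231163-67372858, minus strand) was at 220, 224 and 217 CPM in sham against 200, 221, 249 and 196 CPM in DMSO hearts, a log2 difference of -0.03 (SE 0.10) with overlapping groups. Mef2d (chr3:88142372-88172086, plus strand) likewise overlapped, with 191, 189 and 194 CPM against 193, 170, 190 and 170 CPM (log2 difference -0.09, SE 0.09). Per kilobase, Mef2c made up 10.1 ± 0.184% of the summed MEF2 level in sham and 8.42 ± 0.507% in DMSO hearts, shares that depend on the annotated exon lengths.

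Gata4 and Nkx2-5, which encode the zinc finger and homeodomain factors at the centre of the cardiac network, did not pass and had a wider spread in DMSO than in sham hearts. Gata4 (chr14:63198922-63271692, minus strand) had 99.9, 94.9 and 101 CPM in sham and 130, 94.1, 126.6 and 104 CPM in DMSO hearts, with a log2 difference of 0.20 (95% CI -0.06 to 0.47, edgeR adjusted p = 0.197). Nkx2-5 (chr17:26838664-26845009, minus strand) had 57.1, 59.3 and 61.3 CPM in sham and 71.6, 61.3, 87.0 and 58.5 CPM in DMSO hearts, with a log2 difference of 0.23 (95% CI -0.06 to 0.52, edgeR adjusted p = 0.185). With library size alone the differences were 0.40 (adjusted p = 0.0109) and 0.43 (adjusted p = 0.018), which did not pass either and where the median of all genes was 0.21. Both groups overlapped in either gene, and the TMM-based intervals do not exclude an increase of a size like that of Tbx20. A128 held the highest DMSO value of Nkx2-5, Mef2a, Mef2c and Tbx5, and it also had the lowest atrial marker sum of the DMSO hearts (502 CPM, against 953 to 1704 CPM in the other DMSO hearts), a sum that in the group mean is mostly Nppa, which is a stress-induced ventricular gene as well. A129 held the lowest DMSO value of Nkx2-5, Mef2a, Mef2c, Tbx5, Hand2 and Esrra. Of the DMSO hearts, A129 also had the lowest cardiomyocyte marker sum (54691 CPM) and the lowest mitochondrial share of counts (14.8%). Its fibroblast (7100 CPM), macrophage (950 CPM), neutrophil (181 CPM) and atrial (1704 CPM) marker sums were the highest of the DMSO hearts. The part of these features in the result was not tested.

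**Figure D2:**
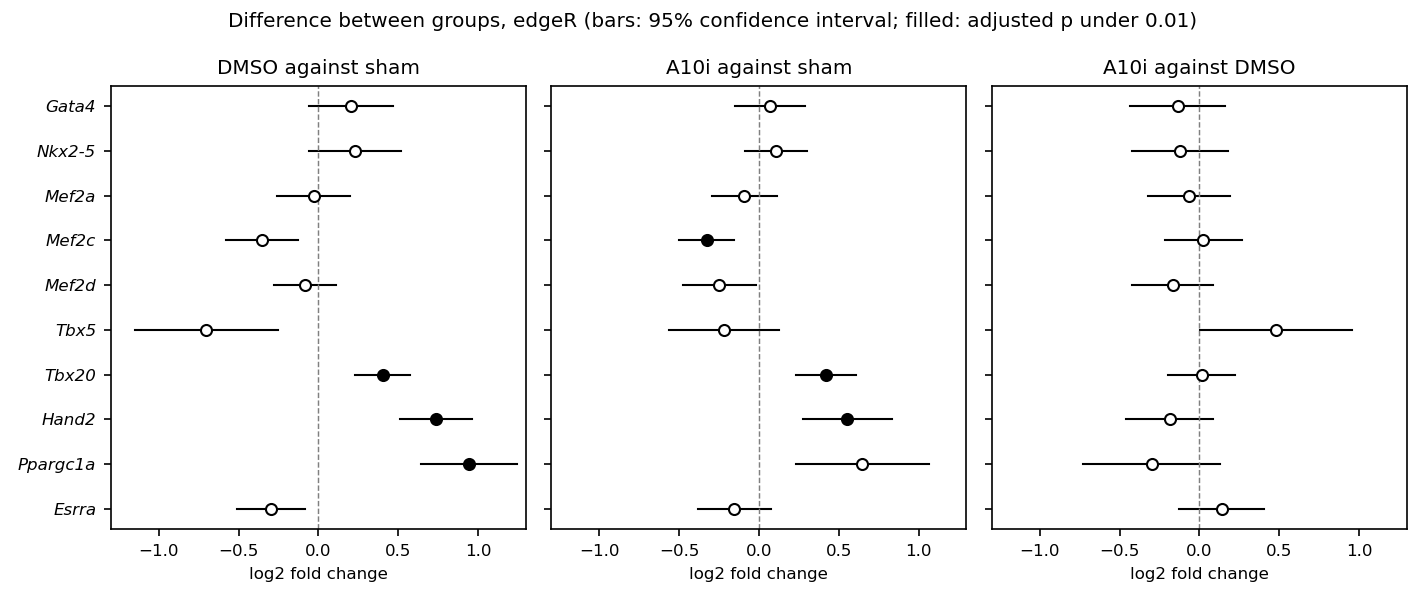
Log2 fold change of the 10 genes in each comparison (edgeR). Points are estimates, bars are 95% confidence intervals, and filled points passed an adjusted p of 0.01: Ppargc1a, Hand2 and Tbx20 in DMSO against sham, Hand2, Tbx20 and Mef2c in A10i against sham, and no gene in A10i against DMSO.

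The second comparison sets A10i-treated infarcted hearts against the same 3 sham hearts, so both comparisons share their controls and their values are given side by side without a test of their likeness. Hand2 and Tbx20 rose and Mef2c fell, which makes 3 of 10 genes called, beside 22.9% of the 16971 genes tested (13.7% higher, 9.11% lower). In 5 of 10 genes the groups did not overlap, against 48.3% of all genes, and at an adjusted p under 0.05, which adds Ppargc1a, 4 of 10 passed beside 39.3%.

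Hand2 was at 48.5, 49.0, 60.7 and 67.3 CPM in A116, A117, A119 and A120, all above sham (log2 fold change 0.55, SE 0.12, edgeR adjusted p = 0.00707). For Tbx20 the A10i hearts had 124, 131, 143 and 111 CPM, also above every sham heart (0.42, SE 0.09, edgeR adjusted p = 0.00376). Mef2c had 63.5, 65.5, 75.0 and 60.6 CPM, all below sham, with a log2 difference of -0.33 (SE 0.08, edgeR adjusted p = 0.00731) that was 0.20 under cardiomyocyte marker scaling, where the median of all genes was 0.53. None of these 3 calls was kept when any 1 of the 3 sham libraries was left out (adjusted p 0.0195 to 0.0367), although the log2 differences were then 0.48 to 0.60 for Hand2, 0.40 to 0.43 for Tbx20 and -0.34 to -0.31 for Mef2c. In these fits the number of all genes called was 1620 to 1714, against 3879 with all libraries. The call of Hand2 was also lost without A119 (0.0146) or A120 (0.0124), and that of Mef2c without A117 (0.015) or A120 (0.0207), in 1 fit of all 11 libraries (0.0258) and with library size alone (log2 difference -0.14, adjusted p = 0.139; median of all genes 0.18).

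Ppargc1a varied more between A10i hearts than any other of the 10 genes. It was at 210, 388, 249 and 262 CPM in A116, A117, A119 and A120. All 4 were above sham and 3 of the 4 were below every DMSO heart, with A117 inside the DMSO range. The log2 fold change against sham was 0.65 (SE 0.18, 95% CI 0.23 to 1.06) and missed the threshold in edgeR (adjusted p = 0.0214), while it passed in DESeq2 (0.00115), with library size alone (0.83, 0.00453) and without A117 (0.45, 0.00562).

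The other genes did not pass in A10i against sham. Mef2d was at 131, 182, 170 and 161 CPM, below every sham heart (log2 difference -0.25, SE 0.10, edgeR adjusted p = 0.0795; 0.27 under cardiomyocyte marker scaling, below the median of 0.53). Tbx5 with 21.3, 34.6, 26.7 and 30.7 CPM and Esrra with 123, 151, 166 and 167 CPM overlapped sham, with log2 differences of -0.22 (SE 0.15) and -0.15 (SE 0.10). Gata4 (90.5 to 124 CPM), Nkx2-5 (54.7 to 72.1 CPM) and Mef2a (185 to 240 CPM) overlapped sham as well, at 0.07, 0.11 and -0.09. A116 held the lowest A10i value of Gata4, Nkx2-5, Mef2a, Mef2d, Tbx5, Hand2, Esrra and Ppargc1a. It was also the A10i heart with the lowest cardiomyocyte marker sum (62809 CPM) and the highest fibroblast (9925 CPM) and macrophage (1300 CPM) marker sums, and the part of these cells in the result was not tested.

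The third comparison, A10i against DMSO, is the one that isolates the inhibitor among infarcted hearts. None of the 10 genes passed, and neither did any of the 16792 genes tested with edgeR (0%), whereas 13.8% had an unadjusted p under 0.05 and 12 genes (0.0715%) an adjusted p under 0.05. DESeq2 called 231 genes and limma-voom 0, none of them among the 10. In 0 of 10 genes the groups were free of overlap, against 8.12% of all genes.

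With TMM and all libraries, Tbx5 was the member with the largest difference, at 21.3 to 34.6 CPM in A10i and 15.9 to 29.4 CPM in DMSO hearts. The log2 difference was 0.48 (SE 0.21, 95% CI 0.01 to 0.95), with an edgeR adjusted p of 0.356 and a two-sided exact permutation p of 0.0857 on log2 CPM. Ppargc1a came next, lower in A10i by a log2 difference of -0.30 (95% CI -0.73 to 0.13, edgeR adjusted p = 0.535, exact permutation p = 0.171). Its difference ran from -0.50 (without A117) to -0.18 (without A116) when 1 library was left out, that of Tbx5 from 0.37 (without A117) to 0.72 (without A128), and per cardiomyocyte marker count they were -0.49 and 0.29 (median of all genes -0.17). None of these values passed. Hand2 (-0.19), Mef2d (-0.17), Gata4 (-0.14), Nkx2-5 (-0.12), Mef2a (-0.07), Tbx20 (0.01), Mef2c (0.02) and Esrra (0.14) lay within 0.2 of 0. Their exact permutation p values ran from 0.171 to 1, where 0.0286 is the smallest that 4 mice against 4 allow. The narrowest interval was that of Tbx20 (-0.19 to 0.22), and the widest were those of Tbx5 and Ppargc1a.

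The 2 ratios took intermediate means in A10i hearts. Ppargc1a to Esrra was 1.84 ± 0.499 in A10i (1.5 to 2.58) against 2.51 ± 0.559 in DMSO, a difference within the spread (exact permutation p = 0.114). Tbx20 to Tbx5 was 4.64 ± 1.11 (3.60 to 5.83) against 6.58 ± 1.69 (exact permutation p = 0.143). Both A10i ranges lay above all sham hearts.

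**Figure D3:**
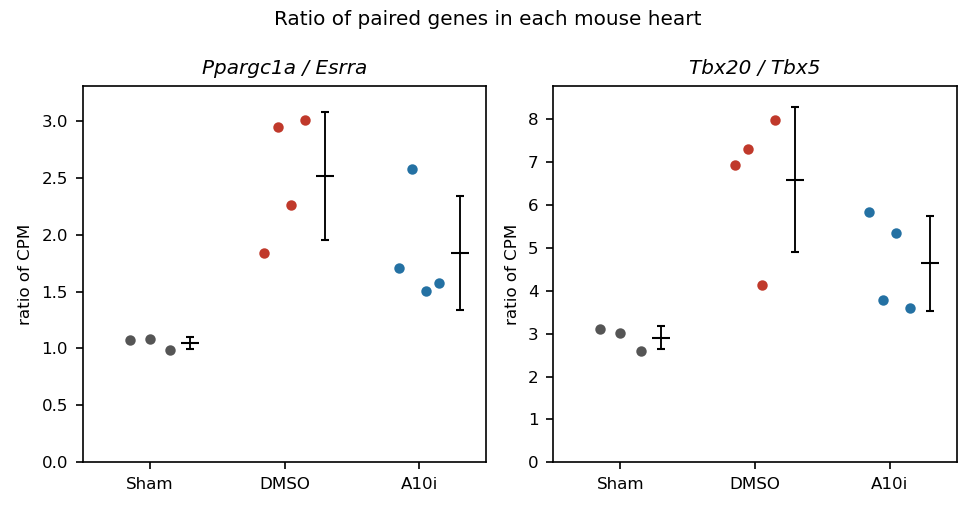
Ratio of Ppargc1a to Esrra and of Tbx20 to Tbx5 in each heart, computed from CPM. Points are single mice, and the bars beside them show mean ± SD (Sham n = 3, DMSO and A10i n = 4 each). Sham hearts lie near 1.05 and 2.90, and all infarcted hearts lie above them. For DMSO hearts this follows from the levels of the single genes.

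Because cardiomyocyte markers were lower after MI (8 of 20 fell in DMSO and 6 of 20 in A10i against sham, median log2 difference -0.59 and -0.40), the same tests were run with each library scaled to its summed cardiomyocyte marker counts. This shifted the median of all genes to 0.71 in DMSO against sham, and the members are given against that shift. Ppargc1a (1.66), Hand2 (1.44), Tbx20 (1.12), Nkx2-5 (0.93) and Gata4 (0.91) lay above it. Mef2a (0.68), Mef2d (0.62), Esrra (0.40), Mef2c (0.35) and Tbx5 (0.01) lay below it. On this scale 8 of the 10 genes passed, beside 53.6% of all genes. In A10i against sham 7 of 10 passed beside 44.2%, with a median of 0.53 over all genes, and Ppargc1a (1.17), Hand2 (1.07) and Tbx20 (0.95) again had the highest values of the 10. Between A10i and DMSO none of the 10 passed and 0.00596% of all genes did (median -0.17), although Hand2 was then lower in each A10i heart (log2 difference -0.36, edgeR adjusted p = 0.419). Relative to the median of all genes, the marker-scaled values were close to those by TMM, with Ppargc1a at 0.95, Hand2 at 0.73, Tbx20 at 0.41, Esrra at -0.31, Mef2c at -0.36 and Tbx5 at -0.70 in DMSO against sham. Marker scaling changes only the size given to each library, and TMM leaves the median of all genes nearly unshifted. This closeness is therefore given by the arithmetic and is no separate support. Mef2a, Mef2c, Mef2d, Tbx5 and Esrra had negative values by TMM and positive values under marker scaling, which also moved the median of all genes up. Which scaling comes nearer to the level per cardiomyocyte was not tested.

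**Figure D4:**
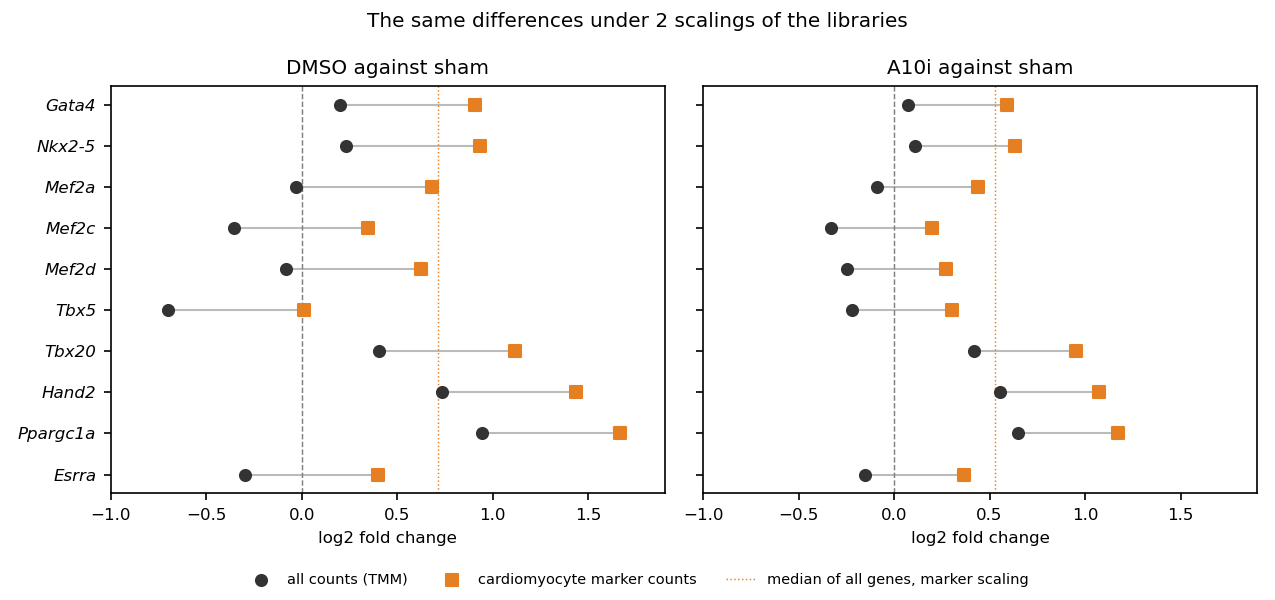
Log2 fold change of the 10 genes against sham with libraries scaled by TMM (circles) or to summed cardiomyocyte marker counts (squares), with the median of all genes under marker scaling as a dotted line (0.71 and 0.53). Ppargc1a, Hand2, Tbx20, Gata4 and Nkx2-5 lie right of the dotted line by markers and right of 0 by TMM. Mef2a, Mef2c, Mef2d, Tbx5 and Esrra lie left of the dotted line by markers, though right of 0, and left of 0 by TMM.

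Several of the 10 genes are also expressed outside cardiomyocytes, so other cell type markers are given beside them. Fibroblast markers summed to 2613 to 2751 CPM in sham, 3000 to 7100 CPM in DMSO and 6438 to 9925 CPM in A10i hearts, with 4 and 10 of 12 called higher against sham. Macrophage and monocyte markers rose in 8 and 10 of 12 (310 to 330, 560 to 950 and 659 to 1300 CPM). Neutrophil markers were 1.76 to 3.03, 89.8 to 181 and 15.9 to 61.1 CPM, called higher in 10 of 10 and 8 of 9 tested. Endothelial markers, a possible source of Mef2c, were 1657 to 1686, 1392 to 1522 and 1644 to 1829 CPM, with 3 of 12 lower and 1 (Cldn5) higher in DMSO, and 1 lower and 1 (Cldn5) higher in A10i. Smooth muscle and pericyte markers were 1771 to 1878, 1059 to 1307 and 1337 to 1435 CPM (4 of 10 lower in both, and 1 of 10 higher in DMSO and 2 in A10i, Tagln in either case), and only 1 and 2 of 10 lymphocyte markers were tested (none called). Atrial markers, which bear on Tbx5 as it is more abundant in atria than in ventricles, summed to 126 to 259, 502 to 1704 and 555 to 1016 CPM (1 of 7 and 4 of 7 higher), with Bmp10 at or near 0 in all groups. Nppa made up most of these sums, with means of 149, 1039 and 718 CPM in sham, DMSO and A10i hearts. Its mean was lower in A10i than in DMSO hearts, as was that of Fgf12 (1.11 CPM in DMSO and 0.983 CPM in A10i). The means of Myl7 (13.2 in DMSO and 22.9 CPM in A10i), Myl4 (26.9 and 36.8), Sln (3.97 and 6.78), Dkk3 (16.5 and 29.2) and Stard10 (14.1 and 16.1) were higher. None of the 7 passed between these groups. The part of any of these cells in the members' differences was not tested.

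Other genes of the same network were examined by list. Of 25 other cardiac transcription factors and cofactors tested, none rose and 5 fell in DMSO against sham (median log2 difference -0.08), where 12.9% of all genes were called higher and 9.6% lower. By smallest p these were Tbx2, a T-box repressor (-0.58, SE 0.10), Hdac9, a deacetylase that represses MEF2 (-0.57, SE 0.11), and Irx4, a homeobox factor of the ventricle (-0.71, SE 0.14). With the inhibitor, 2 of 24 rose and 5 fell against sham (13.7% and 9.11% of all genes; 8 fell by DESeq2), with Tbx2 at -0.47, Hdac9 at -0.66 and Irx4 at -0.58. With library size alone, which shifts the median of all genes to 0.21 in DMSO and 0.18 in A10i against sham, none of this list fell in either comparison.

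Among 28 other metabolic regulators, 1 rose and 7 fell in DMSO against sham (12.9% and 9.6% of all genes), with a median of -0.28. With library size alone, 2 rose and 3 fell. The gene that rose was Pprc1, which encodes a coactivator of the PGC-1 family (log2 fold change 0.98, SE 0.10, edgeR adjusted p = 0.000222). Sirt3, the mitochondrial deacetylase (-0.93, SE 0.10), Ppara, the receptor that drives fatty acid oxidation (-0.75, SE 0.09), and Perm1, a muscle regulator of PGC-1α and ERR signalling (-0.62, SE 0.11), fell. With the inhibitor none rose and 8 fell against sham (2 and 2 with library size alone, 0 and 3 in 1 fit of all 11 libraries), Sirt3 (-0.69) and Ppara (-0.62) among them, whereas Perm1 (-0.31, edgeR adjusted p = 0.052) and Pprc1 (0.36, adjusted p = 0.0166) did not pass. Pprc1 was lower in A10i than in DMSO hearts by a log2 difference of -0.63, which did not pass (edgeR adjusted p = 0.0707).

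Of 30 metabolic targets of ERRα and PGC-1α tested, 2 rose and 1 fell in DMSO against sham (12.9% and 9.6% of all genes), 22 had an unadjusted p under 0.05 (49.3% of all genes), and the median was -0.34. Those that rose were Pdk4, a kinase that restrains glucose oxidation (2.82, SE 0.21, edgeR adjusted p = 4.4e-05), and Ucp3, a mitochondrial carrier (1.55, SE 0.17), and the one that fell was Ckmt2, mitochondrial creatine kinase (-0.71, SE 0.17). Against sham, A10i hearts had Pdk4 higher (2.29, SE 0.48), 3 of 30 fell, Ckmt2 at -0.50 among them, and the median was -0.25, while Ucp3 did not pass (1.4, SE 0.45, edgeR adjusted p = 0.0429). Without a filter on low counts, none of the 30 was called higher in A10i against sham. The summed level of this list was 32883 to 33238 CPM in sham, 22232 to 31325 CPM in DMSO and 21952 to 30598 CPM in A10i hearts. The number that fell depended on the test, with 10 in DMSO and 7 in A10i hearts by DESeq2, 2 and 0 in 1 fit of all 11 libraries and 1 and 0 with library size alone. It was 0 per cardiomyocyte marker count, where 12 rose in each comparison (53.6% and 44.2% of all genes called). Of the 30 genes, 3 are themselves among the cardiomyocyte markers, and Ckmt2 is 1 of these.

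Contractile and secreted targets of the cardiac factors split in both directions. Of 25 tested in DMSO against sham, 5 rose and 7 fell (12.9% and 9.6% of all genes). The number that fell was 11 by DESeq2 and 3 with library size alone, where 6 rose. Nppb (log2 fold change 3.04, SE 0.39), Ankrd1 (2.22, SE 0.24) and Myh7 (1.59, SE 0.12), which encode a natriuretic peptide, a stress-induced nuclear cofactor and the fetal myosin heavy chain, rose. Myh6, the adult myosin heavy chain (-1.19, SE 0.16), Ckm, muscle creatine kinase (-1.17, SE 0.20), and Atp2a2, the calcium pump SERCA2a (-1.01, SE 0.18), fell. Of these 25 genes, 4 rose and 5 fell in A10i against sham, with Nppb at 1.61, Ankrd1 at 1.24, Myh6 at -0.79 and Ckm at -0.80, whereas Myh7 (0.88, edgeR adjusted p = 0.0424) and Atp2a2 (-0.47, adjusted p = 0.0171) did not pass. In this comparison 12 fell by DESeq2, 3 with library size alone and 1 in 1 fit of all 11 libraries. Of the 25 genes, 14 are themselves among the cardiomyocyte markers. Per cardiomyocyte marker count, where 53.6% of all genes passed and 98.6% of these calls were higher, 11 of these targets rose and 3 fell in DMSO against sham, while 12 of 25 cardiac factors and 12 of 28 metabolic regulators rose and none fell. Between A10i and DMSO, none of the genes of these 4 lists passed in the main edgeR fit (3 of 24, 2 of 28, 4 of 25 and 1 of 30 had an unadjusted p under 0.05), with Nppb at -1.43 (adjusted p = 0.132) and Ankrd1 at -0.99 (adjusted p = 0.12). Without a filter on low counts, edgeR called 1 of the other metabolic regulators lower. DESeq2 called 1 gene lower in each list but the ERRα and PGC-1α targets, where it called 0.

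**Figure D5:**
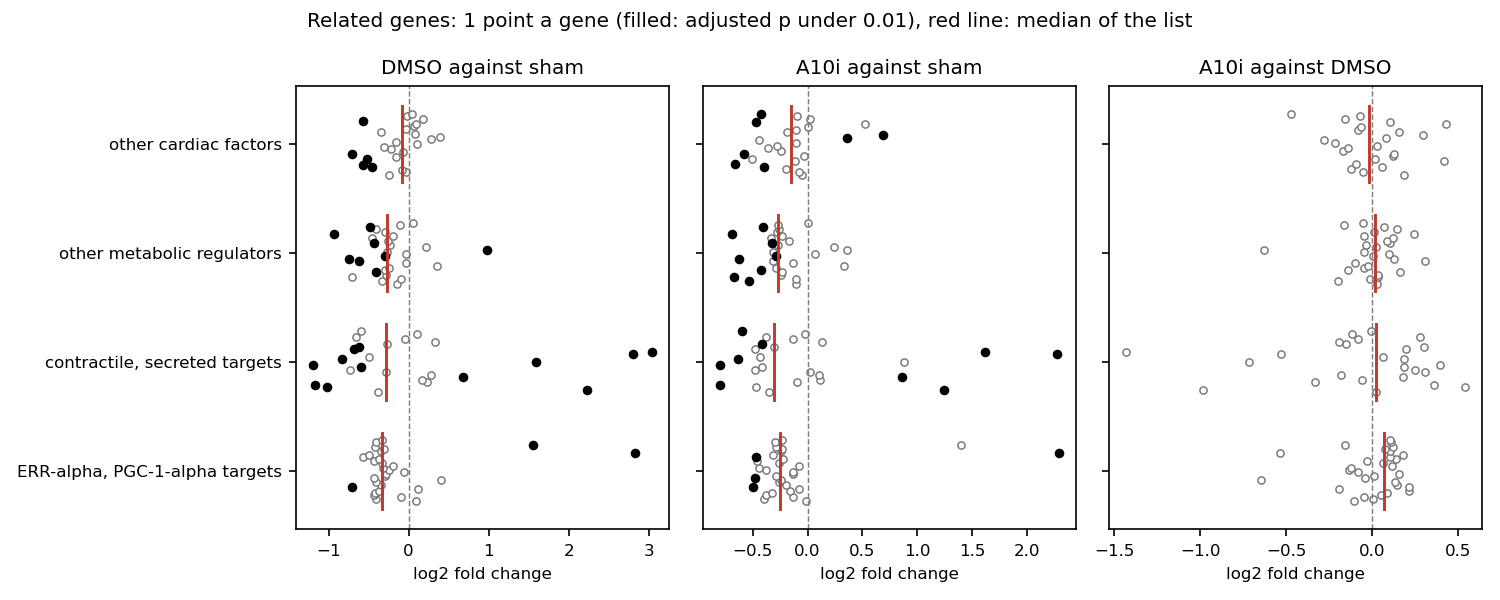
Log2 fold change of related genes in 4 lists and 3 comparisons, 1 point a gene (the horizontal scales differ between panels). Filled points passed an edgeR adjusted p of 0.01, and red lines are list medians, which lie between -0.34 and -0.08 in DMSO against sham and between -0.02 and 0.07 in A10i against DMSO.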

How the data were processed

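Poly(A) RNA of 11 mouse hearts was sequenced from strand-specific libraries. Per the submitters' processing notes the authors used bcl2fastq 2.20.0, GSNAP and featureCounts 2.0.1 with mm10, and they deposited raw read counts per Ensembl gene. The strand setting of the counting is not given in the sources used here. From 55513 deposited rows, 92 spike-in rows (397 reads in all) were left out, and symbols were matched for 55154 of 55421 genes.

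Each comparison used only its own libraries in edgeR 4.0.16 (R 4.3.3): filterByExpr, TMM, robust quasi-likelihood fit, two-sided test, Benjamini-Hochberg adjustment over all genes tested, called at an adjusted p under 0.01. CPM were taken over the TMM-scaled library size, and log2 CPM for exact tests used a prior count of 2. The code was tested on simulated data. DESeq2 1.42.0, limma-voom 3.58.1, other scalings, filters and samples were tried as alternatives. Intervals from edgeR cover the spread between mice, and labels do not name litters or batches. Replicate libraries differed beyond counting noise (chi-square per degree of freedom 4.04 to 60.8), so each counted once.

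The members and lists were chosen with earlier results of these data known. Named were all 10 members, and from each of 4 context lists the 3 genes with the smallest p among those called in each direction in DMSO against sham, and for each member the 3 genes whose centred log2 CPM over the 11 libraries differed least from it. Promoter sequences are from RefSeq (GRCm38.p6).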

Additional observations from a re-analysis of the deposited data

How the results depend on the processing

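Ppargc1a and Hand2 in DMSO against sham kept their calls under every alternative run, and Tbx20 under all but the removal of a sham library. In the comparisons with sham, scaling moved the median of all genes and the direction of calls: the median was 0.21 (DMSO) and 0.18 (A10i) with library size alone, where 82.5% and 85.6% of calls were higher, and 0.71 and 0.53 per cardiomyocyte marker count, where 98.6% and 98.8% were higher, compared with 57.4% and 60.1% by TMM. The sign changes that follow go with these shifts of all genes (-0.17 per marker count in A10i against DMSO). In DMSO against sham, signs turned to 0.18 (Mef2a) and 0.12 (Mef2d) with library size alone, and to 0.68 (Mef2a), 0.35 (Mef2c), 0.62 (Mef2d), 0.0112 (Tbx5) and 0.40 (Esrra) per marker count. In A10i against sham, they turned to 0.0932 (Mef2a) and 0.0282 (Esrra) with library size alone, and to 0.44 (Mef2a), 0.20 (Mef2c), 0.27 (Mef2d), 0.30 (Tbx5) and 0.36 (Esrra) per marker count. In A10i against DMSO, they turned to -0.00587 (Tbx20) with library size alone and to -0.15 (Mef2c), -0.17 (Tbx20) and -0.0347 (Esrra) per marker count. Leaving out 1 library gave ranges that cross 0 for Mef2a in DMSO against sham (-0.10 to 0.0175), for Gata4 in A10i against sham (-0.0255 to 0.13), and in A10i against DMSO for Nkx2-5 (-0.20 to 0.00668), Mef2a (-0.15 to 0.0113), Mef2c (-0.0483 to 0.11) and Tbx20 (-0.0466 to 0.0737).

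In DMSO against sham, 3858 genes and 3 members were called, with 9175 and 8 per marker count, 6832 and 6 at an adjusted p of 0.05, 5104 and 5 by DESeq2, and 1525 to 4051 genes and 2 to 5 members when 1 library was left out. In A10i against sham, 3879 genes and 3 members became 7504 and 7 per marker count, 6671 genes at an adjusted p of 0.05, and 1620 to 4365 genes and 0 to 3 members when 1 library was left out, with 0 without S1, S2 or S3 and 1 without A120. In A10i against DMSO, the count of 0 genes became 231 by DESeq2, 43 without a filter on low counts, 11 in 1 fit of all 11 libraries, 12 at an adjusted p of 0.05, 1 per marker count and 0 to 1 when 1 library was left out, and no member was called under any of them. The causes were not tested. Depth was not varied, and the lowest count of a member was 406. No paired analysis was possible because the groups share no replicate numbers.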

Other observations

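For each of the 10 genes, the genes with the most similar course over the 11 hearts were found by the root mean square difference of centred log2 CPM among 17479 genes. These are descriptions with no test, and all genes of a heart share its library, region and cell makeup. Closest to Ppargc1a were Crem (0.20), a gene of the cyclic AMP response, Rfx2 (0.20) and Sgms1 (0.21), where Ppargc1a itself varied with an SD of 0.46. Esrra ran closest to Samm50, Cox6b1 and Atp5f1 (0.05 each, against an SD of 0.19), which encode a mitochondrial outer membrane assembly protein and subunits of complex IV and of ATP synthase.

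Tbx5 was closest to Tppp (0.10), Fam161b (0.11) and Pygo1 (0.13), at an SD of 0.42. The genes nearest to Mef2a were Mlip (0.05), which encodes a muscle lamin-interacting protein, Fam234a and Agap1 (0.07 each), to Mef2c Arhgap5, Aig1 and Stoml1 (0.06 each), and to Mef2d Mlxip, Fto and Tollip (0.06 each). For Hand2 they were Rps15a-ps3 (0.14), AC131796.1 (0.15) and Cystm1 (0.16), at an SD of 0.35. Gata4 was nearest to Ambra1 (0.09), Lyrm1 (0.09) and Bik (0.10) at an SD of 0.18, Nkx2-5 to Hsd17b11 (0.07), Gm6158 (0.08) and Fdx1 (0.09), and Tbx20 to Nsa2 (0.08), Spty2d1 (0.08) and Nfkb2 (0.09).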
